A study of Homo sapiens with 8 samples.

Results

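The RNA of the cytosolic fraction was compared between 2 human acute myeloid leukaemia cell lines, MOLM-13 and HEL. The 4 libraries, cytosol 1 and 2 of each line, were chosen by their labels from the 8 libraries of a series on RNA held in P-bodies, whose other 4 libraries hold the P-body RNA of the same lines. The labels name no treatment, gene change or time point, and all cells grew in RPMI medium with serum, L-glutamine, beta-mercaptoethanol and antibiotics. Each line was deposited as its own count table, so the line and any batch of preparation cannot be told apart. Each line derives from the leukaemia of 1 patient. No label says that libraries 1 and 2 came from separate cultures, and the p-values therefore speak only of the spread between such libraries, which could be technical. The sources used here do not say how the cytosol was separated.

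HEL is an erythroleukaemia line known for erythroid and megakaryocytic features and for an activating JAK2 mutation. MOLM-13 was established from an acute monocytic leukaemia and is known for a KMT2A-MLLT3 fusion and an internal tandem duplication in FLT3. In normal blood formation GATA1 with its partners drives the erythroid and platelet-forming lineages, whereas PU.1 (the product of SPI1), the C/EBP factors and IRF8 drive granulocytes and monocytes. Messenger RNA is translated in the cytosol, and P-bodies are cytosolic granules of repressed RNA with decay and repressor proteins.

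The HEL libraries held 13153551 and 15569634 counts and the MOLM-13 libraries 5897625 and 7098927, so genes near 0 were measured more finely in HEL. Levels are given as counts per 1e6 counts (CPM), after normalisation factors of 0.992 to 1.005. The median absolute log2 difference per gene was 0.140 between the HEL replicates, 0.149 between the MOLM-13 replicates and 1.47 between the lines. These medians include counting noise, which is larger at the lower depth of MOLM-13. Apart from counting noise the HEL replicates differed more, with a common coefficient of variation from edgeR of 0.071 in HEL and 0.041 in MOLM-13. The libraries also differed in the kinds of RNA they held. Protein-coding genes took 97.8% and 97.9% of the counts in HEL and 95.2% and 95.4% in MOLM-13. MALAT1 and NEAT1, which are known as nuclear RNAs, together took 0.0839% and 0.0747% in HEL and 0.566% and 0.534% in MOLM-13. At a common depth of 5894840 counts, 22081 and 21718 genes had an expected count in the HEL libraries and 29555 and 28840 in the MOLM-13 libraries. The part of nuclear RNA, of library preparation and of the line in these differences was not tested.

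Most genes differed between the lines. Of 16158 genes tested, edgeR's quasi-likelihood test at an adjusted p below 0.05 called 87.1%, with 7007 genes higher in MOLM-13 (43.4%) and 7070 higher in HEL (43.8%). At least 4-fold differences were called for 3402 genes higher in MOLM-13 (21.1%) and 2934 higher in HEL (18.2%). The 12585 protein-coding genes leaned to HEL: 88.3% were called, 4817 of them (38.3%) higher in MOLM-13 and 6290 (50.0%) higher in HEL, and the median log2 difference, MOLM-13 minus HEL, was -0.29. This lean was smaller with protein-coding genes alone in the test and its scaling, where 5339 of 12619 were higher in MOLM-13 and 5685 in HEL and the median was -0.07. With all genes in the test, at least 4-fold calls among them were 14.9% higher in MOLM-13 and 19.5% higher in HEL. These protein-coding shares are the background for the gene lists below, and a list whose shares lie near them is not a result about that list. Noncoding classes leaned to MOLM-13, to unlike degrees. Of 740 processed pseudogenes 544 were higher there and 93 in HEL (median log2 difference 2.08). For 101 sense intronic genes the numbers were 85 and 6 (3.38), and for 751 antisense genes 404 and 186 (0.97). The 648 intergenic long noncoding genes leaned less, with 337 higher in MOLM-13 and 197 in HEL (0.82).

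**Figure D1:**
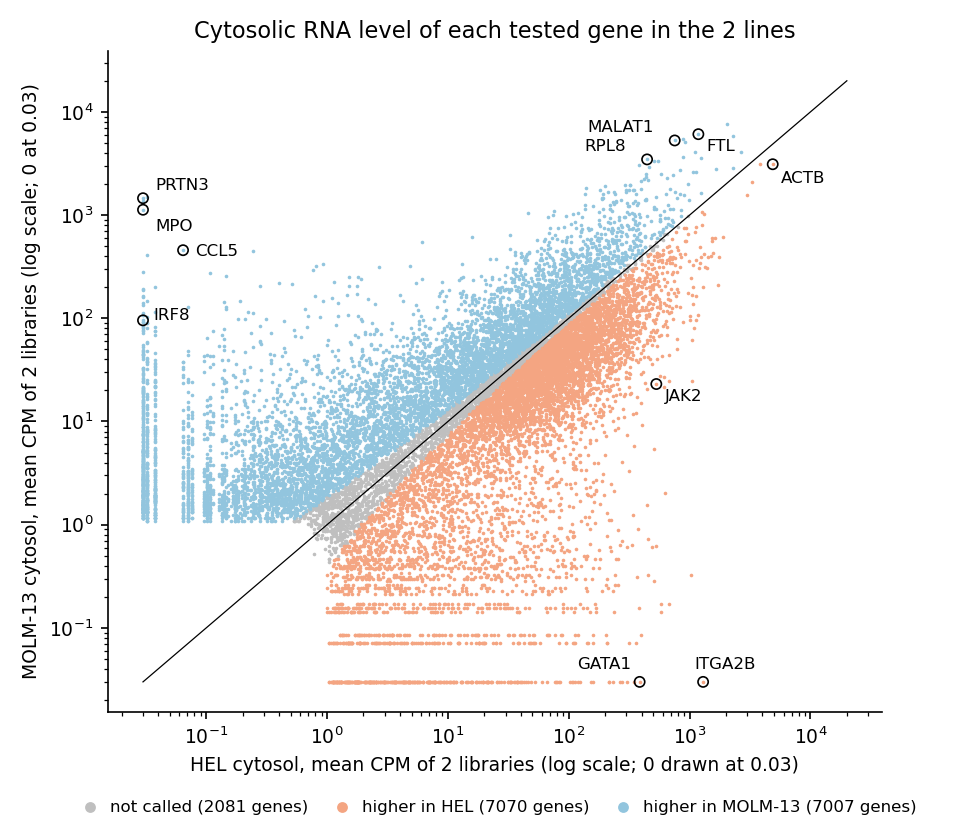
Mean cytosolic level of each of the 16158 tested genes in HEL (horizontal) and MOLM-13 (vertical), in CPM on log axes, with 0 drawn at 0.03; the diagonal marks equal levels. The bands along the left and lower edges hold genes with no or few counts in the other line, among them PRTN3 and MPO for HEL and ITGA2B and GATA1 for MOLM-13.

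The shortest and the most GC-rich messages stood higher in MOLM-13. When protein-coding genes were split into 5 equal bins by transcript length, 54.2% of the shortest (up to 1734 bases) were higher in MOLM-13 and 34.3% in HEL, against 29.9% and 59.1% in the bin of 3644 to 5344 bases and 37.8% and 50.5% in the longest, so the shares did not run evenly with length. In the bin of highest GC content (58.7% and above) 52.8% were higher in MOLM-13, against 30.2% in that of the lowest. Where it alters a call, the value with a trend over GC content and length removed is given too. That trend was fitted over all tested genes of known length and GC content, noncoding classes included, and not over protein-coding genes alone. It explained 5.58% of the deviance, and its values ran from -0.48 to 5.68 on the log2 scale around their median. Removing it would also take out any difference between the lines that follows length.

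**Figure D2:**
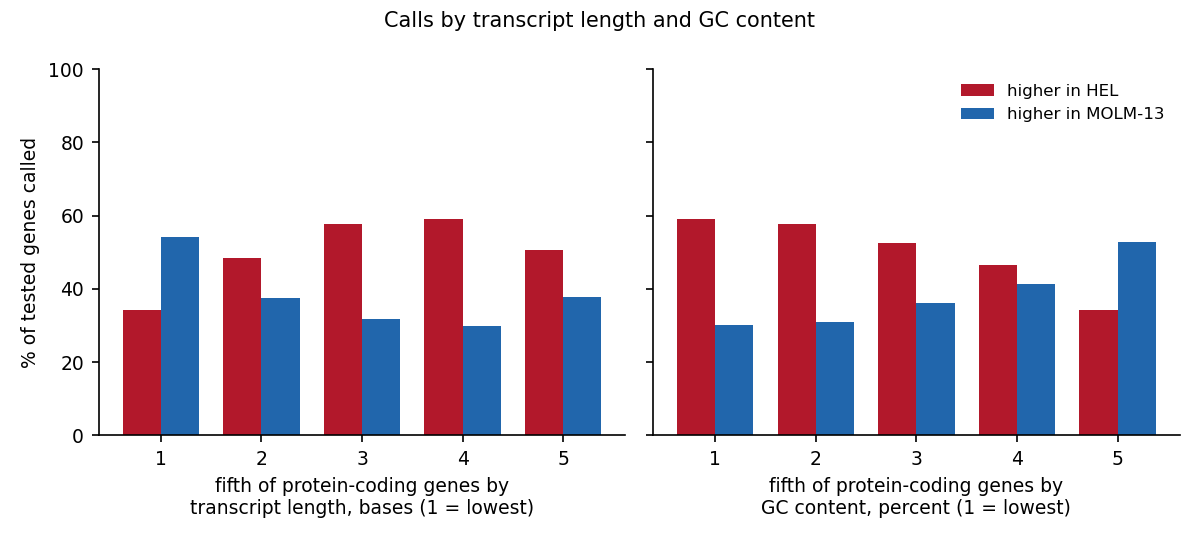
Percentage of tested protein-coding genes called higher in HEL (red) or in MOLM-13 (blue), in 5 equal bins of transcript length (left) and GC content (right). In the shortest and the GC-richest bins more genes were higher in MOLM-13 (54.2% and 52.8%) than in HEL.

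Red cell membrane and blood group genes stood high in HEL. Of 28 tested of 33 listed, 27 were higher in HEL, 25 of them at least 4-fold, and 1 in MOLM-13, with a median log2 difference of -6.58. EPB42, the membrane skeleton protein 4.2, had 379 and 411 CPM in HEL against 0.172 and 0 CPM in MOLM-13, a count ratio of 5115 (95% interval 918 to 202052). CA1, the carbonic anhydrase of red cells, had 1071 and 991 CPM in HEL against 0.516 and 0.141 CPM in MOLM-13, a log2 difference of -11.64 ± 0.16 (standard error; edgeR adjusted p = 1.2e-30). RHAG, which carries the Rh complex, had 458 and 439 CPM in HEL against 0.516 and 0.141 CPM in MOLM-13. In all 3 the HEL libraries were high and alike and the MOLM-13 libraries held 4 counts or fewer. Libraries of bulk RNA cannot tell fewer cells with a message from less of it per cell, and the intervals printed here cover counting error only. GYPC, which anchors the skeleton, was still counted in MOLM-13, with 197 and 195 CPM in HEL against 14.8 and 13.3 CPM in MOLM-13 (14-fold). KEL, the Kell antigen, had 513 and 715 counts in HEL against 0 counts in both MOLM-13 libraries, at least 184-fold higher in HEL, where a count of 0 is set at 3 counts over both libraries. The gene higher in MOLM-13 was CA2, another carbonic anhydrase (1.69-fold). SLC4A1, the anion exchanger of mature red cells, was near 0 in both lines, with 3 and 2 counts in HEL and 1 in each MOLM-13 library.

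Globin messages were present in HEL at modest levels. HBA2, an alpha-globin gene, had 139.8 and 147 CPM in HEL against 0 and 0.141 CPM in MOLM-13. HBG2, a fetal gamma-globin gene, had 41.5 and 37.3 CPM in HEL against 0 CPM in both MOLM-13 libraries. HBB, adult beta-globin, had 13.2 and 14 CPM in HEL against 0.172 and 0.141 CPM in MOLM-13. The fetal and alpha chains were thus the more abundant in HEL, and the minor copies HBA1 (13.7 and 13.5 CPM) and HBG1 (4.1 and 3.73 CPM) lay below their near-identical partners, with which they may share reads. HBE1, embryonic epsilon-globin, had no count in any of the 4 libraries, and HBZ, embryonic zeta-globin, 16 and 15 counts in HEL and 0 and 1 in MOLM-13. The annotated span of HBE1 overlaps that of HBG2, and ENSG00000284931, a coding gene of the locus without a symbol, overlaps HBG1 and HBG2 and had 1647 and 1780 counts in HEL against 0 counts in both MOLM-13 libraries. Reads of HBE1 and the gamma genes may therefore be lost or counted under another gene. Haem synthesis held an erythroid step and shared ones. ALAS2, the erythroid first enzyme, had 158 and 170.4 CPM in HEL against 0.344 and 0 CPM in MOLM-13, a count ratio of 1063 (95% interval 294 to 8781). Its housekeeping counterpart ALAS1 differed by 1.74-fold (164 and 178 CPM in HEL against 91.8 and 104 CPM in MOLM-13). UROD, a middle step, was 13.4-fold and FECH, which inserts the iron, 11.3-fold higher in HEL. Of 22 tested globin and haem genes 20 were higher in HEL and 1 in MOLM-13, SLC25A37, the mitochondrial iron importer (3.12-fold).

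Platelet and megakaryocyte genes were higher in HEL in 32 of 34 tested, 29 of them at least 4-fold, with a median log2 difference of -7.45 (-6.92 with genes at 0 set at their bound). ITGA2B, the alpha chain of the fibrinogen receptor (chr17:44372180-44389505, minus strand, GRCh38), had 16172 and 21126 counts in HEL against 0 counts in both MOLM-13 libraries, at least 5582-fold higher in HEL. ITGB3, its beta chain, had 513 and 493 CPM in HEL against 0 and 0.565 CPM in MOLM-13. SELP, the P-selectin of alpha granules, had 301 and 305 CPM in HEL against 0 CPM in both MOLM-13 libraries. Both chains of the receptor were thus abundant in HEL, and 1 had no count in MOLM-13. GP9, of the von Willebrand receptor, had 306 and 363 CPM in HEL against 0.859 and 0.424 CPM in MOLM-13, and its partner GP1BA 104 and 117 CPM in HEL against 0.516 and 0.424 CPM in MOLM-13. ESAM, a junction protein of platelets and endothelium, had 569 and 585 CPM in HEL against 0 and 0.283 CPM in MOLM-13. MPIG6B, an inhibitory receptor of megakaryocytes, had 578 and 575 CPM in HEL against 0.344 and 0 CPM in MOLM-13. The chemokines of late megakaryocytes were low even in HEL: PF4 had 1.97 and 1.67 CPM in HEL against 0 and 0.141 CPM in MOLM-13 and PPBP 14.3 and 14.7 CPM in HEL against 0 CPM in both MOLM-13 libraries. The 2 members higher in MOLM-13 were also low. F13A1, a coagulation factor that monocytes make too, had 8.08 and 9.61 CPM in MOLM-13 against 0.0758 and 0.129 CPM in HEL, and CLEC1B 1.38 and 1.55 CPM in MOLM-13 against 0.455 and 0.257 CPM in HEL, whose call was lost with DESeq2 (log2 difference 2.08).

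The transcription factors of these lineages divided within their list, with 17 of 32 tested higher in HEL and 11 in MOLM-13, close to the protein-coding background. At least 4-fold calls leaned to HEL, with 13 of the 32 there and 4 in MOLM-13. Among protein-coding genes such calls were 19.5% in HEL and 14.9% in MOLM-13. GATA1, the master factor of both lineages (chrX:48786554-48794311, plus strand), had 5030 and 6065 counts in HEL against 0 counts in both MOLM-13 libraries, at least 1660.4-fold higher in HEL. TAL1, its partner, had 1326 and 1633 counts in HEL against 0 counts in both MOLM-13 libraries, at least 443-fold. GFI1B, a repressor that both lineages require, had 214 and 247 CPM in HEL against 0.172 and 0.283 CPM in MOLM-13. This core was thus counted in HEL and at or near 0 in MOLM-13. KLF1, the activator of adult globin, had 140.1 and 163 CPM in HEL against 2.41 and 1.41 CPM in MOLM-13. GATA2, a factor of stem and mast cells, was counted in both lines and 10.4-fold higher in HEL (208 and 223 CPM in HEL against 18 and 23.2 CPM in MOLM-13), as were FLI1 (10.6-fold) and NFE2 (9.57-fold). LIN28B, which blocks let-7 and is known for the fetal state, had 254 and 231 CPM in HEL against 0.516 and 0.141 CPM in MOLM-13. The silencers of fetal globin stood on the other side. BCL11A had 75.3 and 77.4 CPM in MOLM-13 against 0.607 and 0.45 CPM in HEL (143-fold higher in MOLM-13), and ZBTB7A 173 and 168 CPM in MOLM-13 against 12.1 and 14.2 CPM in HEL. MYB, a factor of progenitors, had 332 and 326 CPM in MOLM-13 against 90.5 and 91.5 CPM in HEL.

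The proximal promoters of a platelet and an erythroid gene are shown because both stood near 0 in MOLM-13 and hold the letters of the GATA motif. The 250 bases before the RefSeq start (GRCh38.p14) were searched on both strands for AGATAA or TGATAA. SELP (chr1:169630125-169630374, minus strand) and ALAS2 (chrX:55030978-55031227, minus strand) each held a match that begins 108 and 127 bases before the start, in capitals, read here on the strand of the gene:
SELP: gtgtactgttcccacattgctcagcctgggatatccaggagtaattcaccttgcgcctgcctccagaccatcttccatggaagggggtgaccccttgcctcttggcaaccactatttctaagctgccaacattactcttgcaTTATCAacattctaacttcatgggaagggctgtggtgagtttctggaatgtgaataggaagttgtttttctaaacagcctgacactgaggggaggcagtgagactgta
ALAS2: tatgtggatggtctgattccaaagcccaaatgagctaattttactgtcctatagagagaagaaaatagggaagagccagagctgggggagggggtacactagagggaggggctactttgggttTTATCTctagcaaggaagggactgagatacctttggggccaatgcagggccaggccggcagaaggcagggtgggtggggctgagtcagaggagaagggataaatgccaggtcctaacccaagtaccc
Such a match was present in 14.9% of 27305 promoters of this length. Of the 12 genes with the lowest log2 differences 9 could be matched to a promoter, and 2 of these, SELP and TMPRSS3, held the letters, as did 2 of the 8 promoters matched for the 12 genes with the greatest. A match is a description of letters and not of a bound site.

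Myeloid transcription factors leaned to MOLM-13. Of 38 tested, 25 were higher there, 16 of them at least 4-fold, and 11 in HEL, with a median log2 difference of 1.25. IRF8, which directs monocytes and dendritic cells, had 96.3 and 94.8 CPM in MOLM-13 against 0 CPM in both HEL libraries, at least 914-fold higher. CEBPA, which opens the granulocyte and monocyte path, had 35.2 and 32.5 CPM in MOLM-13 against 0.152 and 0.0644 CPM in HEL. GFI1, a transcriptional repressor at work within the granulocytic branch, had 56.2 and 56.9 CPM in MOLM-13 against 0.379 and 0.193 CPM in HEL. These 3 were near 0 in HEL. CEBPE, of late granulocytes, had 8.94 and 8.62 CPM in MOLM-13 against 0 CPM in both HEL libraries, and the monocyte factor KLF4 was low too, with 3.78 and 3.39 CPM in MOLM-13 against 0 CPM in both HEL libraries. SPI1, the gene of PU.1, was expressed in both lines, with 119 and 124 CPM in MOLM-13 against 51.7 and 51.6 CPM in HEL (log2 difference 1.24 ± 0.09, edgeR adjusted p = 1.1e-13). With the GC and length trend removed this difference turned to -0.50, and that of CEBPB (2.4-fold higher in MOLM-13) lost its call (0.08). The members higher in HEL included STAT5A (6.77-fold), ID1 (11.7-fold) and NFKB2 (5.8-fold).

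Primary granule genes had the 4 greatest fitted log2 differences under the rule for named genes. PRTN3, proteinase 3 (chr19:840960-848175, plus strand), had 8691 and 10053 counts in MOLM-13 against 0 counts in both HEL libraries, at least 13916-fold higher in MOLM-13. ELANE, neutrophil elastase, had 8234 and 9440 counts in MOLM-13 against 0 counts in both HEL libraries (at least 13122-fold). MPO, myeloperoxidase, had 6745 and 7736 counts in MOLM-13 against 0 counts in both HEL libraries (at least 10751-fold). None of these 3 had a count in HEL. AZU1, azurocidin, had 9262 and 10012 counts in MOLM-13 against 0 and 1 counts in HEL, and the single HEL count leaves its ratio wide, 42929.8 (95% interval 7704 to 1695724). AZU1, PRTN3, ELANE and CFD are neighbours on chromosome 19, between bases 825097 and 863630. CFD, complement factor D, had 331 and 294 CPM in MOLM-13 against 2.5 and 2.9 CPM in HEL. RNASE2, an eosinophil ribonuclease, had 262 and 306 CPM in MOLM-13 against 0 CPM in both HEL libraries. SRGN, the proteoglycan that packs granule contents, was counted in both lines, with 930.1 and 989 CPM in MOLM-13 against 72.7 and 62.1 CPM in HEL. Of 26 tested of 42 listed, 19 were higher in MOLM-13 and 5 in HEL. Those 5 were LCN2 (49.5 and 48.3 CPM in HEL against 0 CPM in both MOLM-13 libraries), MS4A3 (5.12-fold), LTF, and the mast-cell and basophil genes CPA3 and HDC, the last with 124 and 123 CPM in HEL against 0.344 and 0 CPM in MOLM-13.

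The promoters of PRTN3 and AZU1 are printed because the genes are neighbours and both hold letters of myeloid motifs, GAGGAAGT for PU.1 and TTGCNNAA for C/EBP. PRTN3 (chr19:840749-840998, plus strand) held a PU.1 match 88 bases before the start and a C/EBP match 62 bases before it. AZU1 (chr19:827587-827836, plus strand) held a C/EBP match 111 bases before its start. Matches on either strand are in capitals:
PRTN3: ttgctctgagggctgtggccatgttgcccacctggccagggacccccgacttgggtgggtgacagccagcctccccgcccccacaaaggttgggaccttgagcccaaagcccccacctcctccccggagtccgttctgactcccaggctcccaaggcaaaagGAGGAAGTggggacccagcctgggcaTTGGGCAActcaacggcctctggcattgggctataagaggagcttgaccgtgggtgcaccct
AZU1: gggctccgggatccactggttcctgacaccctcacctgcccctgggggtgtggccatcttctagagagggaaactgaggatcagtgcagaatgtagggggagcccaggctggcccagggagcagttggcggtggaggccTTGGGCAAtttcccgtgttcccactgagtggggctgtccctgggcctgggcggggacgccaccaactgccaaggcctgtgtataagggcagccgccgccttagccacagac
Over the 27305 promoters 2.13% held the PU.1 letters and 9.13% the C/EBP letters. Of the 8 promoters matched for the 12 genes of greatest difference, 4 held the C/EBP letters (AZU1, LAMP5, PRTN3 and RNASE2) and 1, that of PRTN3, the PU.1 letters. Of the 9 at the other end 0 held the C/EBP letters and 1, that of PRAME, the PU.1 letters. These are counts of few promoters and a description only.

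Monocyte and macrophage effectors were higher in MOLM-13 in 52 of 61 tested, 42 of them at least 4-fold, and higher in HEL in 7. CSTA, a protease inhibitor, had 267 and 286 CPM in MOLM-13 against 0.152 and 0.0644 CPM in HEL. MNDA, a nuclear antigen of monocytes, had 133 and 127 CPM in MOLM-13 against 0.0758 and 0.0644 CPM in HEL. FCGR1A, the high-affinity IgG receptor, had 124 and 122 CPM in MOLM-13 against 0.228 and 0.0644 CPM in HEL. Other members had few counts. CD14, the endotoxin co-receptor, had 3.61 and 2.26 CPM in MOLM-13 against 0.0758 and 0 CPM in HEL. S100A9, a calprotectin chain, had 1.89 and 4.8 CPM in MOLM-13 against 0 CPM in both HEL libraries. CSF1R, the receptor of macrophage growth factor, had 23.2 CPM in both MOLM-13 libraries against 0.834 and 0.708 CPM in HEL. CD68 had 1 count over all 4 libraries, and MIF, which nearly every cell uses, had 1, 0, 1 and 1, so a count near 0 here need not mean that a message is absent. LYZ, lysozyme, was counted in both lines, with 169 and 200.5 CPM in MOLM-13 against 9.25 and 8.62 CPM in HEL (20.7-fold). The receptors LILRB4, LILRA2 and LILRB1, neighbours on chromosome 19, were all higher in MOLM-13, LILRB4 with 137 and 148 CPM in MOLM-13 against 0.152 and 0.129 CPM in HEL. SIRPA, the receptor for CD47, had 522 and 656 counts in MOLM-13 against 0 counts in both HEL libraries, whereas CD47 itself was 4.03-fold higher in HEL. The superoxide-forming oxidase genes CYBA (9.16-fold), NCF1 (9.7-fold) and CYBB (3.05-fold) were higher in MOLM-13. Members higher in HEL included the Fc receptor genes FCGR2A (5.96-fold) and FCER1G (4.15-fold). By defining markers, with exceptions, HEL thus held erythroid and megakaryocytic messages, and MOLM-13 granulocytic and some monocytic ones. The granulocytic marker MS4A3 was higher in HEL, as given above. Other set markers had few counts or none. Erythroid AHSP had 1 and 2 counts in HEL and 0 in both MOLM-13 libraries, and megakaryocytic GP1BB 0 in all 4 libraries. Monocytic FCN1 had 0 and 1 counts in HEL and 0 and 3 in MOLM-13.

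**Figure D3:**
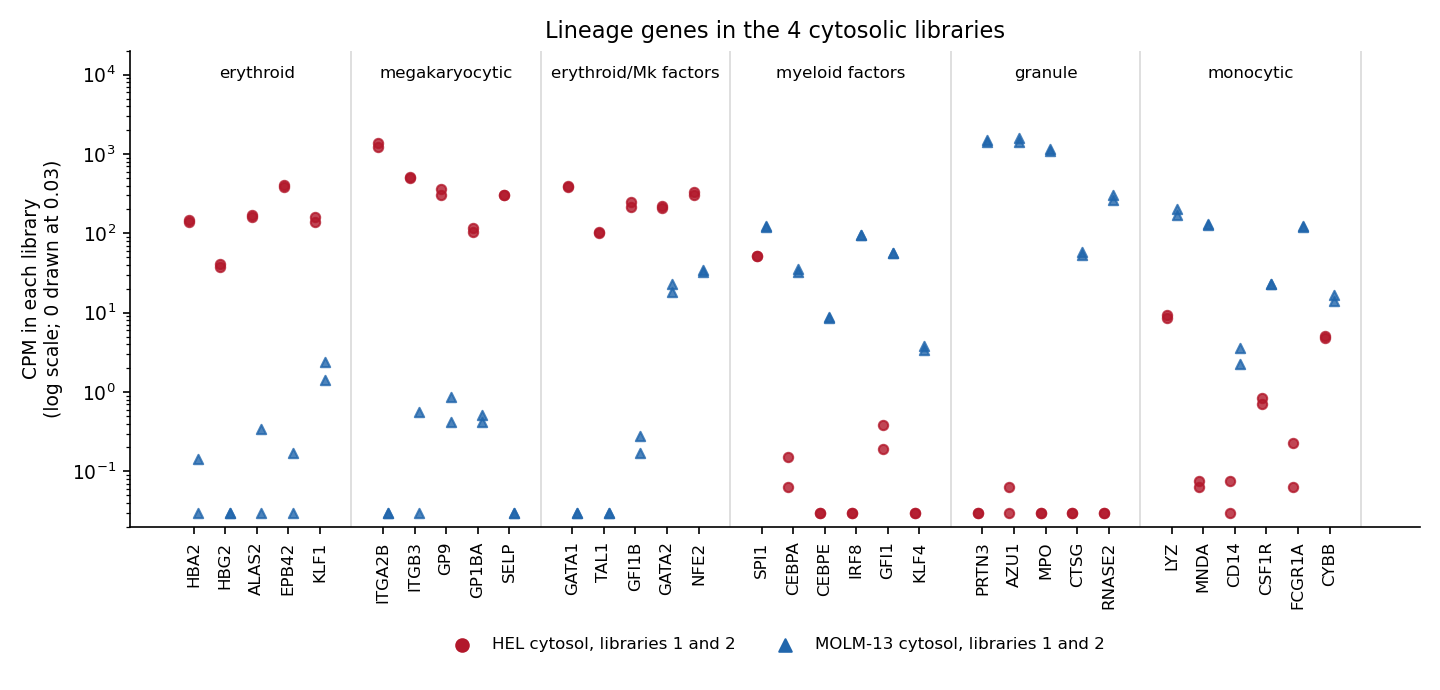
Level of lineage genes in each of the 4 cytosolic libraries, in CPM on a log axis with 0 drawn at 0.03; red circles are HEL and blue triangles MOLM-13. For every gene drawn the libraries of the 2 lines do not overlap; SPI1 and CYBB are among those least apart.

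Of 32 tested HOX and cofactor genes 10 were higher in MOLM-13 and 18 in HEL, shares near those of protein-coding genes. At least 4-fold calls leaned to HEL, with 16 of the 32 there and 6 in MOLM-13. Among protein-coding genes such calls were 19.5% in HEL and 14.9% in MOLM-13. The median log2 difference of the list was -1.86, but -0.34 with a minimum of 5 CPM in 2 libraries. Of 9 protein-coding HOXA genes tested 6 were higher in MOLM-13 and 2 in HEL. HOXA9, the leukaemia-associated member of the HOXA cluster, had 44 and 43.5 CPM in MOLM-13 against 0.531 and 0.193 CPM in HEL (121-fold higher in MOLM-13), and HOXA7 9.63 and 10.5 CPM in MOLM-13 against 0.303 and 0.0644 CPM in HEL. HOXA10 had 22 and 24.1 CPM in HEL against 17.4 and 15.1 CPM in MOLM-13 (log2 difference -0.51 ± 0.15, edgeR adjusted p = 0.0023), and this call was lost without the second MOLM-13 library (-0.37) and with protein-coding genes alone (-0.30). All 8 protein-coding HOXB genes tested, HOXB2 to HOXB7, HOXB9 and HOXB13, were higher in HEL. HOXB9 had 78.4 and 80.6 CPM in HEL against 0 CPM in both MOLM-13 libraries, at least 342-fold higher. The cofactors that bind DNA with HOX proteins divided too. MEIS1 was counted in both lines and 2.62-fold higher in HEL (62.6 and 55.6 CPM in HEL against 22.3 and 22.6 CPM in MOLM-13). PBX3 was 7.84-fold higher in MOLM-13.

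Of 33 tested genes of KMT2A complexes and of fusion targets outside HOX, 16 (48.5%) were higher in MOLM-13 and 11 (33.3%) in HEL. Among protein-coding genes these shares were 38.3% and 50.0%. RUNX2 had 39.4 and 39 CPM in MOLM-13 against 0.0758 and 0 CPM in HEL. DOT1L, the methyltransferase that KMT2A fusions recruit, had 154 and 145 CPM in MOLM-13 against 15.2 and 16.4 CPM in HEL (9.42-fold), and JMJD1C was 3.82-fold, CDK6 3.32-fold and ZNF521 5.44-fold higher in MOLM-13. MEN1, the gene of menin (2.44-fold), PSIP1, its chromatin tether (6.49-fold), and the fusion partner MLLT3 (8.35-fold) were higher in HEL. Counts per gene do not tell a fusion from the genes it joins. MYC was not called (187 and 205 CPM in HEL against 169.8 and 193 CPM in MOLM-13), but was called higher in HEL with no filter (log2 difference -0.35, edgeR adjusted p = 4.2e-05) and without HEL cytosol 1 (-0.21, 0.0096).

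Cytokine receptors separated the lines in both directions, with 18 of 54 tested (33.3%) higher in MOLM-13 and 34 (63.0%) in HEL. Among protein-coding genes these shares were 38.3% and 50.0%. FLT3, the receptor of early myeloid cells, had 78.7 and 71.8 CPM in MOLM-13 against 0.0758 and 0 CPM in HEL, a count ratio of 2152 (95% interval 385 to 85071). CSF3R, the receptor of granulocyte growth factor, had 276 and 312 CPM in MOLM-13 against 0.834 and 0.708 CPM in HEL. INSR, the insulin receptor, had 112 and 117 CPM in MOLM-13 against 0.379 and 0.0644 CPM in HEL. Each was near 0 in HEL. KIT, the stem cell factor receptor, had 52.5 and 47.2 CPM in HEL against 1.2 and 0.283 CPM in MOLM-13. TIE1, an endothelial and stem-cell receptor, had 148 and 172 CPM in HEL against 0.172 and 0 CPM in MOLM-13. EPOR, the erythropoietin receptor, was found in both lines and 1.66-fold higher in HEL (56.9 and 59.1 CPM in HEL against 35.1 and 34.9 CPM in MOLM-13). CSF2RB, the chain shared by IL-3 and GM-CSF receptors, was 14-fold higher in HEL.

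Of 44 tested JAK-STAT genes 27 (61.4%) were higher in HEL and 13 (29.5%) in MOLM-13, against 50.0% and 38.3% of protein-coding genes. JAK2 had 539 and 522 CPM in HEL against 22.7 and 23.5 CPM in MOLM-13, 22.9-fold higher in HEL (log2 difference -4.52 ± 0.09, edgeR adjusted p = 1.8e-27). JAK3 was 44-fold and JAK1 6.9-fold higher in HEL. STAT3 (6.53-fold), STAT5A (6.77-fold) and STAT5B (4.32-fold) were higher in HEL and STAT6 (1.86-fold) in MOLM-13. Known targets of STAT5 divided. PIM1, a survival kinase, had 301 and 329 CPM in HEL against 21.8 and 21.5 CPM in MOLM-13. CISH, a feedback inhibitor, was 2.97-fold higher in HEL. SOCS2, another, had 70.5 and 74.9 CPM in MOLM-13 against 24.3 and 22.5 CPM in HEL.

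The antiapoptotic genes divided between the lines. Of 20 tested members of the BCL2 family 9 were called in each direction, with a median log2 difference of 0.06. At least 4-fold calls were 6 in MOLM-13 and 2 in HEL. BCL2L1, which encodes BCL-XL, had 111 and 113 CPM in HEL against 10.7 and 6.78 CPM in MOLM-13 (13.1-fold higher in HEL). BCL2 had 45.7 and 48 CPM in MOLM-13 against 0.228 and 0.193 CPM in HEL (212-fold higher in MOLM-13). BCL2A1 had 29.2 and 33.8 CPM in MOLM-13 against 0.379 and 0.193 CPM in HEL. MCL1 was 2.54-fold higher in HEL. Of the proapoptotic members BIK (36.4 and 35.6 CPM in MOLM-13 against 0.228 and 0 CPM in HEL) and BAX (4.7-fold) were higher in MOLM-13 and BCL2L11, the gene of BIM, in HEL (2.81-fold). CDKN1A, the cell cycle inhibitor p21, had 92.3 and 94.5 CPM in MOLM-13 against 14.6 and 14 CPM in HEL (6.55-fold). MDM2, a ubiquitin ligase, had 171 and 168 CPM in MOLM-13 against 70.9 and 63.5 CPM in HEL, and the death receptor gene TNFRSF10B 54 and 64.4 CPM in MOLM-13 against 0.303 and 0.257 CPM in HEL. BTG2 (16.8-fold) and GADD45A (10.3-fold) were higher in HEL.

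The short arm of chromosome 9, which carries JAK2, held runs of neighbours on the same side. It was picked after its values were seen and has no test of its own. In the first 30 Mb 43 of 60 tested protein-coding genes were higher in HEL, 32 of them at least 4-fold, and 13 in MOLM-13 (median log2 difference -2.22). On the rest of the chromosome 196 of 440 were higher in HEL and 179 in MOLM-13 (-0.06). JAK2 (chr9:4984390-5128183, plus strand) lies near AK3 (15.4-fold higher in HEL), RCL1 (18-fold) and RIC1 (25.7-fold). CD274, its neighbour, which encodes the checkpoint ligand PD-L1, had 50.6 and 50.4 CPM in HEL against 0 and 0.141 CPM in MOLM-13. NFIB, farther along, had 463 and 430.0 CPM in HEL against 1.55 CPM in both MOLM-13 libraries. A few genes of the arm stood the opposite way, at or near 0 in HEL. DOCK8, near the chromosome end, had 1072 and 1335 counts in MOLM-13 against 0 counts in both HEL libraries, at least 1787-fold higher in MOLM-13. MTAP, a methionine salvage enzyme (chr9:21802543-21937651, plus strand), had 25.3 and 24.3 CPM in MOLM-13 against 0.0758 and 0.0644 CPM in HEL. KLHL9, close by, had 16.3 and 14.1 CPM in MOLM-13 against 0.228 and 0.193 CPM in HEL, and HACD4 62 and 81 counts in MOLM-13 against 0 counts in both HEL libraries. CDKN2A, beside MTAP, had 1 count over all 4 libraries.

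Antigen presentation genes of class I were called higher in HEL in 13 of 24 (54.2%) and in MOLM-13 in 7 (29.2%), against 50.0% and 38.3% of protein-coding genes. Reads of these similar, polymorphic genes may be shared or lost. B2M, the common light chain, had 1661 and 1410.1 CPM in HEL against 555 and 654 CPM in MOLM-13 (2.54-fold), and TAP1, the peptide transporter, was 15.5-fold higher in HEL. Of 11 tested class II genes 7 (63.6%) were higher in HEL and 3 (27.3%) in MOLM-13. HLA-DPA1, a chain of HLA-DP, had 33.3 and 31.4 CPM in HEL against 0 CPM in both MOLM-13 libraries, at least 139-fold higher in HEL. HLA-DRA had 2.88 and 2.77 CPM in HEL against 0.688 and 0.565 CPM in MOLM-13, and its activator CIITA was not called (1.97 and 2.38 CPM in HEL against 1.2 and 2.12 CPM in MOLM-13). The 3 higher in MOLM-13 were HLA-DOB (log2 difference 6.94), RFXANK (1.85) and CD74, the invariant chain (3.35-fold).

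Of 51 tested interferon-stimulated genes 34 (66.7%) were higher in HEL and 11 (21.6%) in MOLM-13, against 50.0% and 38.3% of protein-coding genes. GBP4, a guanylate-binding protein, had 90.4 and 93.1 CPM in HEL against 0.516 and 0.565 CPM in MOLM-13. IFITM1, which blocks viral entry, had 54.4 and 52.2 CPM in HEL against 0.859 and 0.848 CPM in MOLM-13. BST2, known as tetherin, stood the other way with 146 CPM in both MOLM-13 libraries against 1.06 and 0.772 CPM in HEL (159-fold). Of 34 tested Toll-like receptor and inflammasome genes 19 (55.9%) were higher in MOLM-13 and 10 (29.4%) in HEL. PYCARD, the inflammasome adaptor, had 161 and 153 CPM in MOLM-13 against 1.29 and 0.901 CPM in HEL (143-fold). CASP1, its protease, had 39.9 and 41.4 CPM in MOLM-13 against 0.758 and 0.901 CPM in HEL. IL1B, the cytokine this machinery matures, was 27.5-fold higher in HEL (112 and 107 CPM in HEL against 5.33 and 2.83 CPM in MOLM-13). The machinery and its substrate thus stood highest in different lines.

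Of 35 tested chemokines, cytokines and their receptors 25 were higher in MOLM-13 and 8 in HEL. CCL5 had 435 and 478 CPM in MOLM-13 against 0 and 0.129 CPM in HEL, a count ratio of 6592 (95% interval 1824 to 54443). CCR2, the receptor that recruits monocytes, had 17.5 and 25.7 CPM in MOLM-13 against 0 CPM in both HEL libraries. CXCR4, which retains cells in the marrow, had 49.2 and 42.8 CPM in MOLM-13 against 5.01 and 4.38 CPM in HEL (9.79-fold). Of 42 tested adhesion genes 28 (66.7%) were higher in HEL and 14 (33.3%) in MOLM-13, against 50.0% and 38.3% of protein-coding genes. ITGAL, the alpha chain of a leukocyte integrin, had 216 CPM in both MOLM-13 libraries against 0.379 and 0.644 CPM in HEL. CD44, the hyaluronan receptor, had 105 and 106 CPM in MOLM-13 against 1.14 and 2.45 CPM in HEL. ITGA2, the collagen-binding chain of platelets, had 48.5 and 51.5 CPM in HEL against 0 and 0.424 CPM in MOLM-13. ITGB5 had 106 and 192 CPM in HEL against 2.41 and 2.26 CPM in MOLM-13, unequal between the HEL libraries but without overlap.

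All 85 ribosomal protein genes were called higher in MOLM-13, 54 of them at least 4-fold, with a median log2 difference of 2.37. They made up 2.41% and 2.31% of all counts in HEL and 11.1% and 10.5% in MOLM-13. RPL8 had 3608 and 3319 CPM in MOLM-13 against 443 and 446 CPM in HEL, and RPL28 1085 and 932 CPM in MOLM-13 against 68.3 and 80.6 CPM in HEL. RPL15 differed least, by 1.65-fold. Their median transcript length was 874 bases, in the range that stood higher in MOLM-13 among protein-coding genes in general. With the trend over GC content and length removed 76 were higher in MOLM-13 and 5 in HEL, and the median was 1.26. Processed pseudogenes copy these messages, so some reads may be split.

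Histone and mitochondrial calls moved with that trend too. Of 53 tested replication-dependent histone genes, whose messages lack a poly(A) tail, 41 were higher in MOLM-13 and 8 in HEL, but 19 and 21 with the trend removed. H4C3 had 501 and 457 CPM in MOLM-13 against 176 and 159 CPM in HEL, a log2 difference of 1.52 that became -0.59 with the trend removed. Of the 13 mitochondrially encoded mRNAs 8 were higher in MOLM-13 and 4 in HEL, and 3 and 7 with the trend removed. MT-ND1, of complex I, had 1351 and 1561 CPM in MOLM-13 against 207 and 167 CPM in HEL, and MT-CO1, of complex IV, 3492 and 3126 CPM in HEL against 1937 and 2246 CPM in MOLM-13, so messages of this genome did not shift together. Of 14 tested long noncoding RNAs 11 were higher in MOLM-13 and 1 in HEL, and their median log2 difference was 1.87 and, with the trend removed, 1.77. The class of intergenic long noncoding genes leaned the same way, with 337 of 648 higher in MOLM-13 and 197 in HEL. MALAT1, of nuclear speckles, had 5467 and 5104 CPM in MOLM-13 against 795 and 710.5 CPM in HEL, and NEAT1, of paraspeckles, 272 and 249 CPM in MOLM-13 against 41.9 and 38.2 CPM in HEL. The member higher in HEL was NORAD, a cytosolic RNA (213 and 179 CPM in HEL against 115 and 113 CPM in MOLM-13).

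Glycolysis and cholesterol synthesis were higher in HEL. Of 25 glycolytic genes 22 were higher in HEL and 2 in MOLM-13, with a median log2 difference of -1.77. HK1, a hexokinase, had 436 and 449 CPM in HEL against 19.3 and 22.2 CPM in MOLM-13 (21.2-fold). GAPDH had 1848 and 1896 CPM in HEL against 555 and 665 CPM in MOLM-13 (3.06-fold). PKLR, the pyruvate kinase of liver and red cells, had 70.9 and 85.1 CPM in HEL against 0.344 and 0.283 CPM in MOLM-13. The glucose carrier gene SLC2A1 was 20.1-fold and the lactate dehydrogenase gene LDHA 3.62-fold higher in HEL. Of 27 tested cholesterol synthesis genes 23 were higher in HEL and 4 in MOLM-13, with a median of -1.59. HMGCS1, an early synthase of the pathway, had 305 and 295 CPM in HEL against 28.5 and 25.4 CPM in MOLM-13, and LSS, which closes the sterol rings, was 6.86-fold higher in HEL. The share of both lists in HEL lay far above the 50.0% of protein-coding genes.

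Of 50 cell cycle genes 40 were higher in HEL and 7 in MOLM-13, with a median of -1.44. MCM2, of the replication helicase, had 317 and 381 CPM in HEL against 4.81 and 6.78 CPM in MOLM-13 (59.3-fold). Its partners differed less, MCM3 by 2.7-fold, MCM6 by 2.74-fold and MCM7 by 2.17-fold. CCND2 (10.8-fold) and CCND3 (6.84-fold), which encode D cyclins, were higher in HEL, while their kinase gene CDK6 was higher in MOLM-13, as given above. Of 9 tested CDK inhibitor and RB family genes 5 (55.6%) were higher in HEL and 3 (33.3%) in MOLM-13. These shares lay near the 50.0% and 38.3% of protein-coding genes. RB1 was 2.43-fold higher in HEL and CDKN1B, the inhibitor p27, 2.58-fold higher in MOLM-13, although its call fell away under trend removal (log2 difference 0.34).

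Genes for P-body and mRNA decay proteins stood near the background, with 26 of 62 (41.9%) higher in MOLM-13 and 30 (48.4%) in HEL. DDX6, the helicase on which P-bodies depend, had 168 and 156 CPM in HEL against 67.9 and 66.4 CPM in MOLM-13 (2.41-fold higher in HEL). EDC4, a decapping scaffold, had 104 and 123 CPM in HEL against 3.61 and 3.81 CPM in MOLM-13 (30.5-fold), and CNOT1, the deadenylase scaffold, was 13.7-fold higher in HEL. IGF2BP1, which binds oncofetal messages, had 94.7 and 93 CPM in HEL against 0.344 and 0.141 CPM in MOLM-13. LSM7, of the ring that promotes decapping, was 9.16-fold and TNRC6A, a partner of Argonaute, 5.21-fold higher in MOLM-13. LSM14A, a translational repressor of P-bodies, was among the most abundant messages of both lines, with 3955 and 3701 CPM in HEL against 3164 and 3021 CPM in MOLM-13. Its small difference (-0.31 ± 0.06, edgeR adjusted p = 9.4e-06) lost its call with protein-coding genes alone (-0.09) and turned to 0.17 with the trend removed. The labels do not say whether the cells carried an added copy. NCOA4, a ferritin receptor, had 443 and 417 CPM in HEL against 76.3 and 84.9 CPM in MOLM-13 (5.32-fold higher in HEL).

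Other groups were read from few members. Of 50 cancer-testis and germline genes 9 were tested, 5 higher in HEL and 4 in MOLM-13. MAGEA1, on chromosome X, had 159 and 158 CPM in HEL against 0 and 0.141 CPM in MOLM-13, and XAGE1B 43.7 and 40.8 CPM in MOLM-13 against 0 CPM in both HEL libraries, with copies in each family that make these counts uncertain. Of 24 tested imprinted genes 15 (62.5%) were higher in HEL and 8 (33.3%) in MOLM-13, against 50.0% and 38.3% of protein-coding genes. DLK1, a paternally expressed gene, had 34.8 and 39.6 CPM in HEL against 0 CPM in both MOLM-13 libraries, and PHLDA2, a maternally expressed gene, 18.4 and 13.3 CPM in MOLM-13 against 0.531 and 0.257 CPM in HEL. Of 34 lymphoid markers 10 were tested, 6 higher in HEL and 4 in MOLM-13, and the list summed to 26.6 and 28.3 CPM in HEL and 242 and 239 CPM in MOLM-13. NKG7, a granule membrane gene on this list too, gave 163 and 160.2 CPM in MOLM-13 against 0 CPM in both HEL libraries of that sum, and CD3D 38.2 and 37.4 CPM in MOLM-13 against 0 and 0.0644 CPM in HEL, while MS4A1 had no count. Of 29 fibroblast, endothelial and epithelial markers 13 were tested, 9 higher in HEL and 4 in MOLM-13, summing to 712 and 735 CPM in HEL and 166 and 161 CPM in MOLM-13. PECAM1, which platelets and myeloid cells carry too, gave 438 and 436 CPM in HEL against 110.2 and 104 CPM in MOLM-13 of it, and the fibroblast gene DCN had 0 counts in HEL and 3 in MOLM-13. The part of other cell types in the results was not tested.

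**Figure D4:**
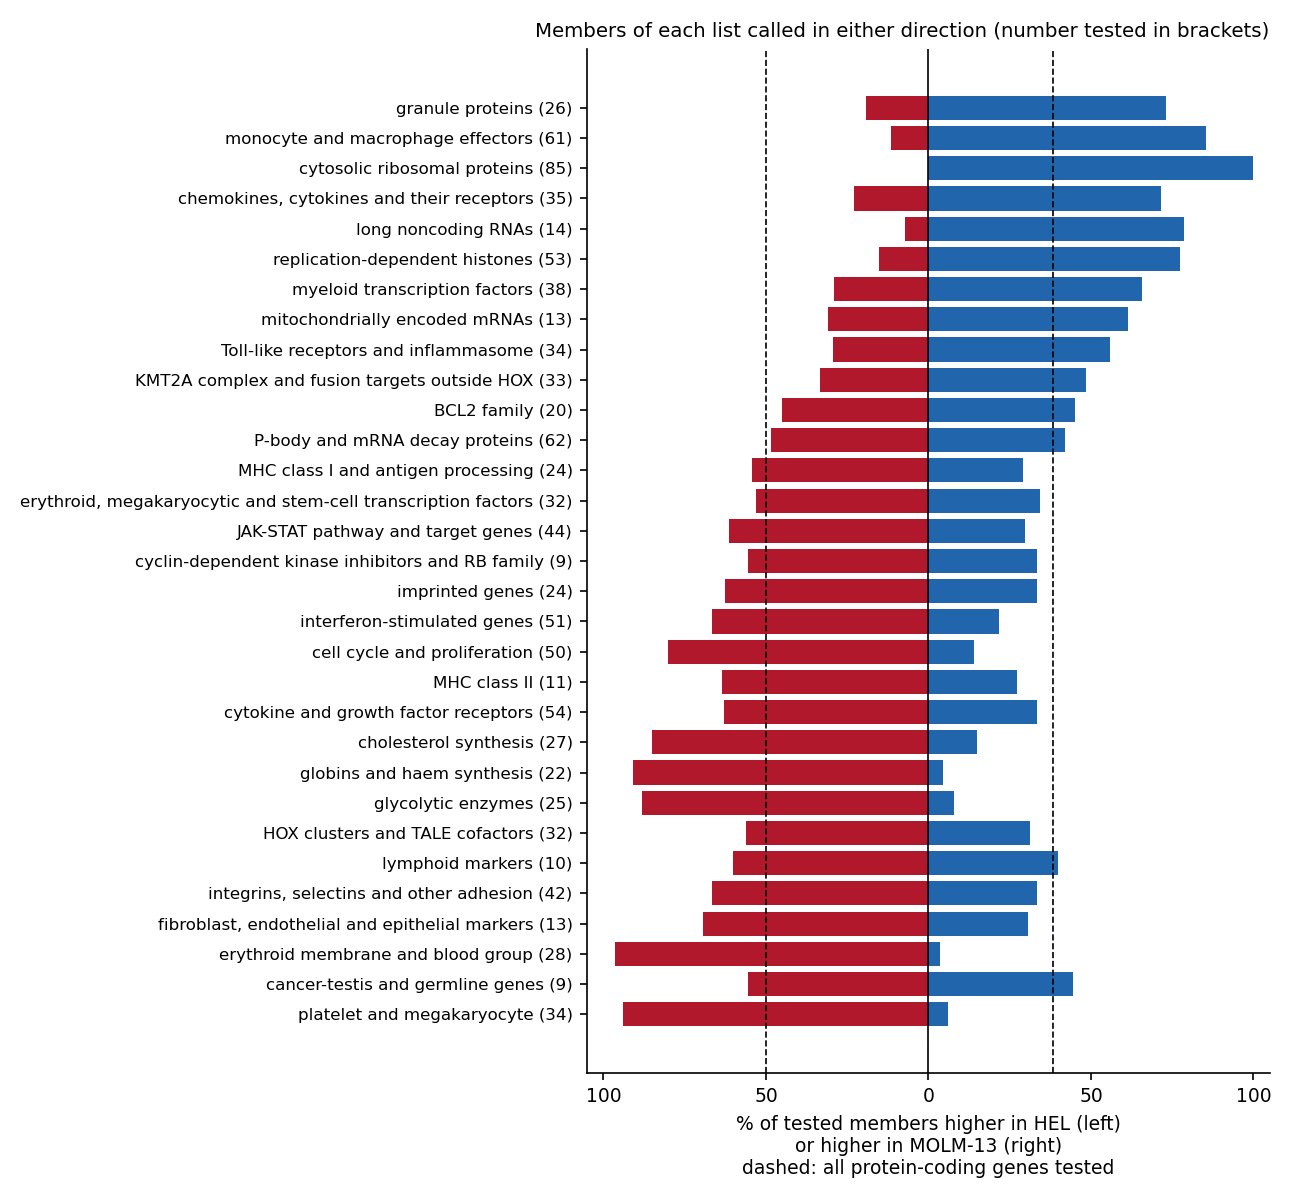
Percentage of the tested members of each gene list drawn that were called higher in HEL (red, left) or in MOLM-13 (blue, right), ordered by median log2 difference; dashed lines give the same over all protein-coding genes tested (50.0% and 38.3%). The erythroid and platelet lists reach far to the left with almost no calls in MOLM-13, and the ribosomal list reaches 100% on the right. The long noncoding list is drawn against the protein-coding shares too, which are not those of its own class.

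Levels per length, as CPM per kilobase of the reference transcript, ranked ACTB first in HEL (mean 2535; MOLM-13 1618) and FTL, ferritin light chain, first in MOLM-13 (mean 6925; HEL 1346). In HEL the next 9 were MT-CO1, PFN1, FTL, MT-RNR2, ENO1, YWHAZ, HMGN1, CALM2 and LSM14A. In MOLM-13 they were PTMA, RPL13A, RPL7, MT-RNR2, RPS18, RPL8, RPL35, RPL19 and RPL18. Ribosomal protein genes thus filled 7 of the 10 highest places in MOLM-13 and 0 in HEL. The reference is the transcript with the longest coding sequence, which need not be the form expressed. A reference shorter than that form raises the rank of a gene.

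Genes with at least 200 counts over both libraries of a line and 0 in both of the other numbered 111 for HEL and 65 for MOLM-13, and the greater depth of HEL makes the limit easier to pass there. A count of 0 says that RNA was not detected at this depth. In HEL they included PRAME, a melanoma antigen (4373 and 5585 counts in HEL against 0 counts in both MOLM-13 libraries, at least 1490.3-fold). CAVIN2, of caveolae and platelets, had 3632 and 4354 counts in HEL against 0 counts in both MOLM-13 libraries. NPY1R, a neuropeptide receptor, had 3162 and 3502 counts in HEL against 0 counts in both MOLM-13 libraries. MYL4, an embryonic myosin light chain, had 2879 and 3267 counts in HEL against 0 counts in both MOLM-13 libraries. PRAME, NPY1R and MYL4 are best known from tissues other than blood. In MOLM-13 they included FCER2, the IgE receptor CD23 (1050 and 1436 counts in MOLM-13 against 0 counts in both HEL libraries, at least 1846-fold). LAMP5, a membrane protein of dendritic cells and neurons, had 975 and 1161 counts in MOLM-13 against 0 counts in both HEL libraries, and BASP1, a membrane-bound protein of neurons, 677 and 761 counts in MOLM-13 against 0 counts in both HEL libraries.

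The same contrast in the P-body libraries shares no library with the cytosolic one. Across 15189 genes tested in both fractions the line differences had a Pearson r of 0.954 and a Spearman rho of 0.962, given as a description across genes, which share line and table and are not replicates. Of 10503 genes called at least 2-fold in the cytosol 9683 were tested in P-bodies, where 9223 were called the same way and 11 the opposite way. Of all 15847 genes tested in P-bodies 41.3% were higher in MOLM-13 and 42.3% in HEL. The test of the difference between the fractions called 22.2% of 17477 genes, 9.15% with a more positive and 13.0% with a more negative line difference in P-bodies. That balance was not stable: the numbers of genes, 1600 and 2275, became 1955 and 1830 with library totals, 3053 and 915 without HEL cytosol 1, 2825 and 880 without HEL cytosol 2, and 3441 and 1215 without HEL P-body 1.

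ELANE and GATA1 stood on the same side in both fractions. ELANE had 0 CPM in both HEL libraries against 497 and 536 CPM in MOLM-13 in P-bodies, and GATA1 188 and 184 CPM in HEL against 0 and 0.103 CPM in MOLM-13. JAK2 had 477 and 484 CPM in HEL against 31.5 and 38.6 CPM in MOLM-13 there, and its line difference moved toward 0 by 0.63 ± 0.13 on the log2 scale (edgeR adjusted p = 8.2e-04). Of the 10503 genes called at least 2-fold in the cytosol, the test of the difference between the fractions called 2387. In 1915 the shift in P-bodies ran against the sign of the cytosolic difference and in 472 with it. These genes were chosen for a large cytosolic difference, which the test also subtracts, so the choice itself favours the first direction. No conclusion is drawn from this split. Ribosomal protein genes took 1.88% and 2.16% of P-body counts in HEL and 5.64% and 5.88% in MOLM-13. FTL had 792 and 830.2 CPM in HEL against 2964 and 3143 CPM in MOLM-13, a line difference that was -0.56 ± 0.08 relative to that in the cytosol (edgeR adjusted p = 1.3e-05). PTMA, prothymosin alpha, had an equivalent value of -0.98 ± 0.09 (edgeR adjusted p = 1.8e-07). YWHAZ, an abundant signalling adaptor, stood on different sides. It had 961 and 917 CPM in HEL against 744 and 767 CPM in MOLM-13 in the cytosol, a call lost with protein-coding genes alone (log2 difference -0.10), and 924 and 899 CPM in HEL against 1153 and 1144 CPM in MOLM-13 in P-bodies. The difference between its line differences was 0.54 ± 0.08 (edgeR adjusted p = 2.4e-05).

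**Figure D5:**
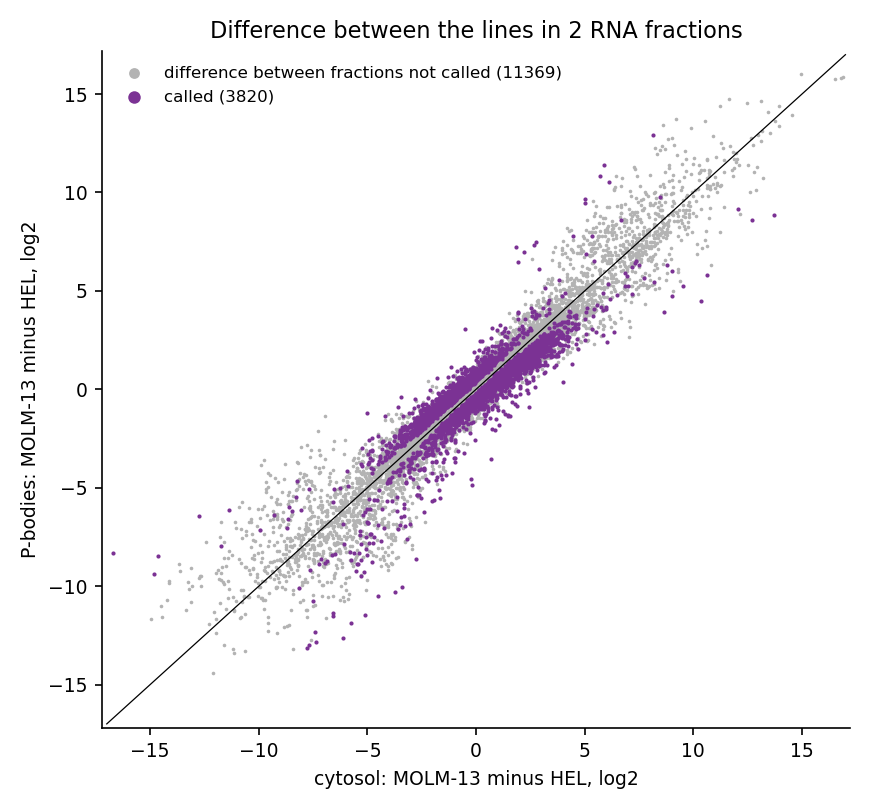
Line difference of each of 15189 genes in the cytosol (horizontal) and in P-bodies (vertical), as log2 of MOLM-13 over HEL; purple points (3820) are genes whose difference between the fractions was called. Points lie along the diagonal of equal differences.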

How the data were processed

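RNA of 4 cytosolic libraries (MOLM-13 and HEL, libraries 1 and 2) was compared, with the 4 P-body libraries as a second fraction. The labels name the miRNeasy Micro kit for the total RNA and NEBNext Ultra II for library construction. The deposited values are raw counts per gene, 1 table per line, and the submitters' processing notes list GRCh38, STAR, SAMtools 1.12 and DESeq2 without roles. Strand setting and poly(A) or ribosomal RNA selection are not stated in these sources.

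Of 61544 rows per table, 1348 rows of 112 repeated symbols were left out and 60196 symbols joined, of which 55888 matched GENCODE 29 for class, length and coordinates. Counts were tested with edgeR 4.0.16 (R 4.3.3) by the quasi-likelihood test, with TMM factors, filterByExpr (minimum count 10) and Benjamini-Hochberg adjustment over all genes tested. Replicate numbers do not pair the libraries. Alternatives used RLE factors, library totals, other filters, DESeq2 1.42.0, glmTreat beyond 2-fold, all 8 libraries, a replicate block, each library left out, the GC and length trend removed (mgcv 1.9.3) and, chosen after seeing the data, protein-coding genes alone. The code was tested on simulated counts, and the limits set for passing that test were loosened after its first outcome, with the fit itself unaltered.

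The comparison and the gene lists were chosen with earlier results of these data known, and 1 misplaced gene was taken off the long noncoding list after its values were seen. Genes were named by a fixed rule: the 12 greatest and 12 lowest log2 differences at 20 CPM or more, the 10 most abundant per length in each line, genes counted in 1 line only, up to 8 leading and set lineage members per list, and the 10 largest differences between fractions. Other genes were chosen after their values were seen, and some genes that the rule names are not reported here. A fold against 0 counts is a lower bound with 3 counts over both libraries, and ratios over 1 to 3 counts have exact 95% intervals.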

Additional observations from a re-analysis of the deposited data

Results flagged for a closer look

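The difference between the lines was not the same in both fractions for some genes by a test of that difference. It called 1600 genes with a more positive and 2275 with a more negative MOLM-13 minus HEL difference in P-bodies than in the cytosol. Under the rule for named genes the 10 called genes with the largest values included ITGA2B (8.33 on the log2 scale, edgeR adjusted p = 4.0e-06), CTTNBP2 (-6.53, 0.0028), SELP (6.12, 0.017), ART4 (-5.56, 0.048), MECOM (-5.46, 0.0021), PRAME (5.41, 0.021), GPR132 (5.37, 0.0026), ITGA2 (-5.36, 0.047) and NFATC4 (5.18, 0.044).

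In each of these genes a line had at most 5 counts per library in a fraction, and a fitted value there depends on the prior count and is no bound. ITGA2B had 1227 and 1359.6 CPM in HEL against 0 CPM in both MOLM-13 libraries in the cytosol and 391 and 405 CPM in HEL against 1.02 and 1.44 CPM in MOLM-13 in P-bodies. MECOM had 85.1 and 89.2 CPM in HEL against 0.688 and 0.141 CPM in MOLM-13 in the cytosol and 547 and 485 CPM in HEL against 0 and 0.103 CPM in MOLM-13 in P-bodies. GPR132 had 0.379 and 0.901 CPM in HEL against 39 and 40.5 CPM in MOLM-13 in the cytosol and 0 CPM in both HEL libraries against 22.3 and 25.1 CPM in MOLM-13 in P-bodies. In all 3 the lines did not overlap in either fraction.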

How the results depend on the processing

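Over all alternatives the genes higher in MOLM-13 numbered 5191 to 8394 and those higher in HEL 5515 to 8367. At least 4-fold higher in MOLM-13 were 2036 with a minimum of 5 CPM in 2 libraries and 2147 with protein-coding genes alone. The median of all genes tested was 0.76 with no filter (39657 genes tested) and -0.21 with the GC and length trend removed. The first value includes the genes of low count that the filter leaves out. Over the genes of the main test the median with no filter was -0.25, against -0.01 in the main test. That of the protein-coding genes was -0.53 there, against -0.29. The numbers shared by same-numbered libraries gave a deviation correlation of 0.0193, and the replicate block gave 6995 and 7061 genes and changed none of these counts by over 1.5 times. Leaving out each library in turn gave 1198 to 3441 genes more positive and 880 to 2054 more negative in P-bodies, 2 to 4 mitochondrial mRNAs and 1 to 2 long noncoding RNAs higher in HEL. With 5 CPM as minimum, members higher in HEL became 10 for HOX, 4 for MHC class II, 2 for mitochondrial mRNAs, 2 for lymphoid markers and 4 for histones, and members higher in MOLM-13 became 22 for histones, 2 for cancer-testis, 1 for glycolysis and 1 for platelet genes. DESeq2 also gave 1 for platelet genes. With no filter, members higher in MOLM-13 became 4 for MHC class I, 2 for cholesterol synthesis, 4 for cell cycle and 11 for cancer-testis genes, with 2 long noncoding RNAs higher in HEL, as with library totals. All 8 libraries gave 8 cancer-testis genes, and protein-coding genes alone 2 mitochondrial mRNAs higher in HEL. With the trend removed, members higher in MOLM-13 became 3 for MHC class I, 3 for mitochondrial mRNAs, 2 for cholesterol synthesis and 19 for histones, and those higher in HEL 5 for ribosomal proteins, 7 for mitochondrial mRNAs, 2 for long noncoding RNAs and 21 for histones. That setting turned SPI1 to -0.50, H4C3 to -0.59 and LSM14A to 0.17. Fewer genes pass the higher minimum by construction, and the cause of the other shifts was not tested. The MOLM-13 libraries, with fewer counts, limit what can be seen of genes near 0 there.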
